A study of Canis lupus familiaris with 8 samples.

Results

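This section describes 7 genes of the endothelium, the cell layer that covers a heart valve leaflet and faces the blood, in mitral valve leaflets of dogs. They are NOS3, EDN1, PECAM1, ENG, VCAM1, SELE and PDPN. The members were every probe set that the platform annotation assigns to 1 of these symbols, which gave 18 probe sets for 7 of the 6540 genes named on the array. Of these 18, 17 were bright enough to be tested, out of 14705 tested among 23836 probe sets. The genes had been chosen with higher signals in affected leaflets in view, so the differences between affected and control dogs given for them are a description and no test of them is offered.

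RNA came from the frozen anterior mitral valve leaflet of 8 dogs, and each dog gave 1 Affymetrix array. The 4 control dogs were beagle crosses. The 4 dogs with degenerative mitral valve disease were of other breeds: affected 1 was a Lhasa apso, affected 3 a Dachshund, and affected 2 and 4 were each a Miniature poodle. Disease and breed therefore changed together and cannot be told apart, and the labels hold no age, sex or stage of disease. The arrays had a common trimmed mean signal of 500.1 and median signals from 124 to 191, and their number limits the precision. Genes of valve interstitial cells were bright in all 8 leaflets, with signals from 13116 to 24076 for the proteoglycan gene DCN and from 18656 to 47706 for VIM. COL1A1 was also bright in 7 dogs, at 7867 or more, but was at 1351 in control 2, and COL3A1 was at 1426 in that dog against 5168 or more in the others. Control 2 also had the highest mean log2 signal of cardiac muscle markers, 13.86, where the others ranged from 10.09 in affected 3 to 13.21. A leaflet is a mixture of cells, so more endothelial cells and more RNA per endothelial cell cannot be told apart in any value below.

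The endothelium sets vascular tone, leukocyte entry and clotting. NOS3 is the endothelial nitric oxide synthase, whose product relaxes muscle and restrains adhesion, and EDN1 encodes the precursor of endothelin-1, a constricting and growth-promoting peptide that acts on the receptors EDNRA and EDNRB. PECAM1 is an adhesion molecule of endothelial cell borders that leukocytes and platelets carry too. ENG, endoglin, is a co-receptor for ligands of the TGF-beta family. VCAM1 and SELE (E-selectin) are induced by inflammatory cytokines and hold leukocytes at the vessel wall. PDPN, podoplanin, is a mucin-like membrane protein of lymphatic endothelium that fibroblasts and some macrophages can also make. In valves, the endothelium signals to the interstitial cells below it and can give rise to mesenchymal cells.

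All 17 tested probe sets had a higher mean signal in affected dogs, where 50.5% of all tested probe sets did. The differences ran from 0.16 to 2.51 on the log2 scale with a median of 1.02, beside a median of 0.0065 over all tested probe sets. In 3 of the 17, for NOS3, ENG and PDPN, every affected dog lay above every control. Over all tested probe sets, 2.35% were apart in this direction. None of the 17 passed limma at an adjusted p of 0.05, and of the 14705 tested probe sets 0% passed it. An unadjusted p under that level was found for 9 of the 17. Over all tested probe sets 7.83% (1151) did, 4.02% higher and 3.81% lower in affected dogs. Since the genes were picked from this contrast, nothing is read from these counts.

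**Figure D1:**
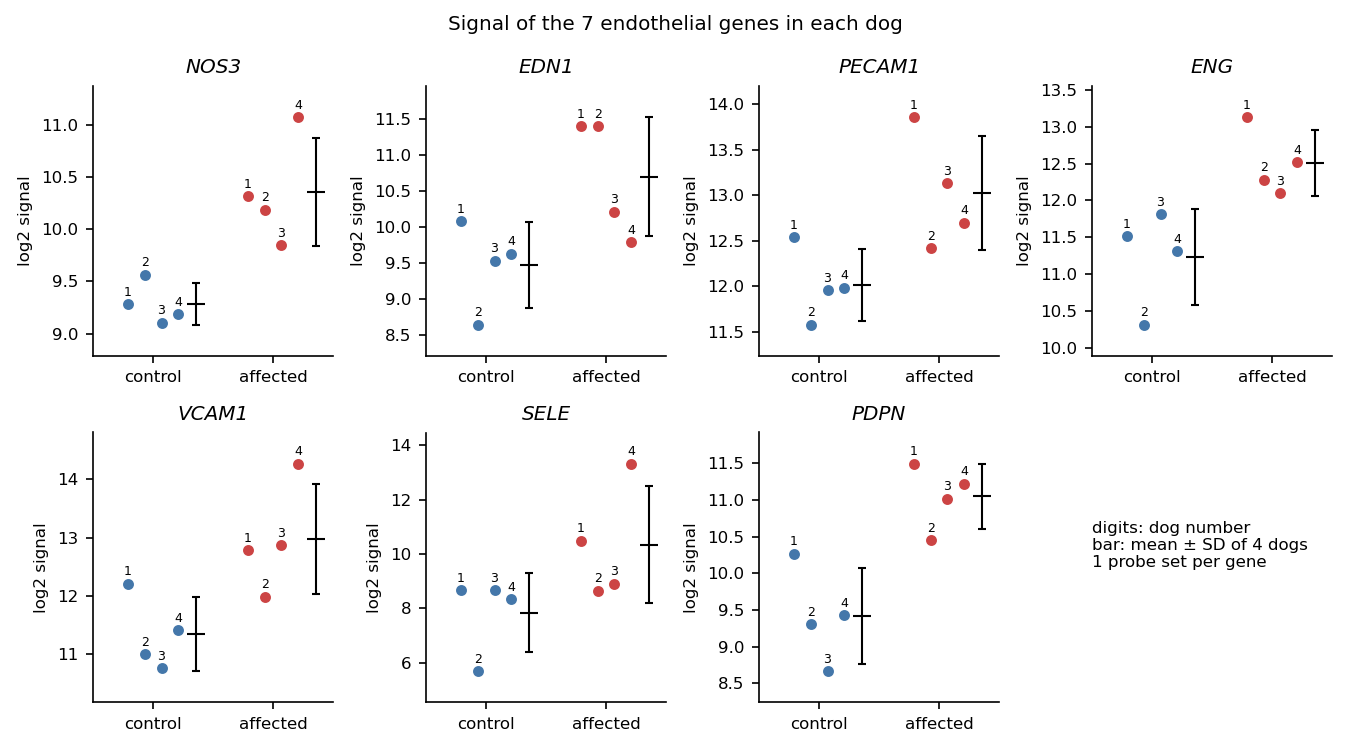
Log2 signal (vertical axis) of the brightest tested probe set of each of the 7 genes in 4 control (blue) and 4 affected (red) dogs. Each point is 1 dog with its number, and the bar beside each group is its mean ± SD. The groups are apart for NOS3, ENG and PDPN and overlap for the other genes, and affected 4 is highest for NOS3, VCAM1 and SELE but lowest of the affected dogs for EDN1.

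Of the genes that set vascular tone, NOS3 had 3 probe sets, each higher in affected dogs. The brightest (1582783_at) had signals of 622, 757, 551 and 583 in controls 1 to 4 and of 1272, 1165, 919 and 2151 in affected dogs 1 to 4. No affected dog came down to the level of a control. Its difference was 1.07 ± 0.29 (log2, SE from limma, n = 4 against 4), a signal 2.10 times as high. The second probe set (1582509_at) had control signals of 777, 335, 444 and 469 and affected signals of 987, 718, 1481 and 2990. Here affected 2 lay below control 1, and the difference was 1.46 ± 0.44. The third (1582784_s_at) ran from 139 to 269 in controls and stood at 290, 259, 367 and 879 in affected dogs, a difference of 1.02 ± 0.40. In all 3 probe sets affected 4 was the highest dog, and without it the third difference was 0.63. In the dog assembly UU_Cfam_GSD_1.0 an uncharacterised gene, LOC119877096, overlaps NOS3, and the place of the probes relative to it was not analysed here.

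EDN1 also had 3 probe sets with higher means in affected dogs, with a different order of the dogs. The brightest (1588685_at) had signals of 1084, 400, 741 and 793 in controls and of 2697, 2697, 1186 and 885 in affected dogs. Affected 1 and 2 stood well above all controls, while affected 4 lay below control 1, and the difference was 1.23 ± 0.44. The second (1583003_at) gave 407, 135, 165 and 214 in controls and 550, 545, 533 and 163 in affected dogs. In this probe set 3 affected dogs were close together above the controls and affected 4 lay within the control range, below controls 1, 3 and 4. Its difference was 0.93 ± 0.47, and 1.37 without affected 4. The third (1583002_at) ran from 45.0 in control 2 to 147 in control 1 and from 125 to 211 in affected dogs. Its difference of 0.82 ± 0.41 was 0.48 without control 2. The dog with the highest NOS3 signals thus had the lowest EDN1 signal of the affected group in all 3 EDN1 probe sets.

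The partners of these genes lay on both sides of 0. Of 25 listed genes of nitric oxide synthesis and signalling, 16 were named on the array and 12 were tested. Of the 12, 6 were higher and 6 lower, with 0 past the threshold and no gene whose groups were apart. Their median of 0.025 was -0.050 with median centring and -0.00032 with quantile normalization, and it ran from -0.17 to 0.11 with each dog left out. SPR, which makes the cofactor of nitric oxide synthases, differed by -0.82 ± 0.38. PDE5A, which breaks down cyclic GMP, differed by -0.60 ± 0.29, and its other probe set by -0.15 ± 0.29. The arginine-consuming ARG1 differed by 0.39 ± 0.23 in its brightest probe set and by -0.20 ± 0.35 and -0.038 ± 0.36 in its other 2. Of 11 listed genes around endothelin, 3 were tested and all 3 were lower, with 0 past the threshold. Their median of -0.31 was -0.15 without control 2, -0.14 without control 3 and -0.52 without affected 2. The receptor EDNRA had signals from 214 to 1717 in controls and from 219 to 579 in affected dogs. The affected range lay within that of the controls, and the difference of -0.68 ± 0.58 was -0.15 without control 2, the highest dog. EDNRB differed by -0.12 ± 0.33, and by 0.0068 without control 1 and 0.024 without affected 1. MME, an endopeptidase that degrades endothelin, differed by -0.31 ± 0.33, from -0.52 without affected 2 to -0.14 without control 3.

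PECAM1 had 7 probe sets and the widest disagreement among them. The brightest (1589265_x_at) had signals of 5954, 3060, 3976 and 4058 in controls and of 14845, 5487, 8984 and 6658 in affected dogs. Affected 1 was the highest dog and affected 2 lay below control 1. Its difference was 1.01 ± 0.34. The second (1589769_x_at) had signals from 1387 to 3331 in controls and from 1813 to 4662 in affected dogs. Its difference was 0.73 ± 0.36, with a 95% interval from -0.081 to 1.54 that held 0. The suffix x marks probe sets that can bind other transcripts, and the 2 brightest probe sets carry it. The other 4 tested probe sets differed by 0.59 ± 0.45, 0.55 ± 0.40, 0.42 ± 0.36 and 0.16 ± 0.43. Their 95% intervals all held 0, and all 4 held 1.01, the difference in the brightest probe set, too. In these 4, affected 3 was the highest affected dog and affected 2 the lowest, whereas affected 1 was the highest in the 2 brightest. Without affected 3 they were 0.35, 0.24, 0.19 and -0.10, and the last was -0.14 without control 2. The seventh probe set (1594669_at) was too dim to be tested, with 3 controls and affected 2 under the floor of 34.2. Control 3 was at 58.0 and affected 1, 3 and 4 were at 164, 67.9 and 124.

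ENG had 1 probe set, with signals of 2921, 1270, 3594 and 2532 in controls and of 8961, 4974, 4383 and 5882 in affected dogs. The groups were apart, with the lowest affected dog (affected 3) above the highest control (control 3). The difference was 1.27 ± 0.35, a signal 2.42 times as high, and it ranged from 0.96 without control 2 to 1.46 without control 3. In the same assembly ENG overlaps FPGS, and the array's probes were not placed against either gene. Of 19 listed genes of signalling through endoglin and its partner receptor ACVRL1, 6 were tested. Of these, 5 were higher and 1 was lower, with a median of 0.25 and 0 past the threshold. Without control 2 this median was -0.019, and TGFBR2 was then at -0.021. ACVRL1 itself differed by 0.21 ± 0.24, the ligand TGFB1 by 0.74 ± 0.36 and the receptor TGFBR2 by 0.39 ± 0.42, with 0.79 ± 0.37 in its other probe set. SMAD5, which carries the signal of ACVRL1 to the nucleus, was lower in every affected dog than in every control, at -0.93 ± 0.29. Over all tested probe sets 2.31% were apart in that direction.

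**Figure D2:**
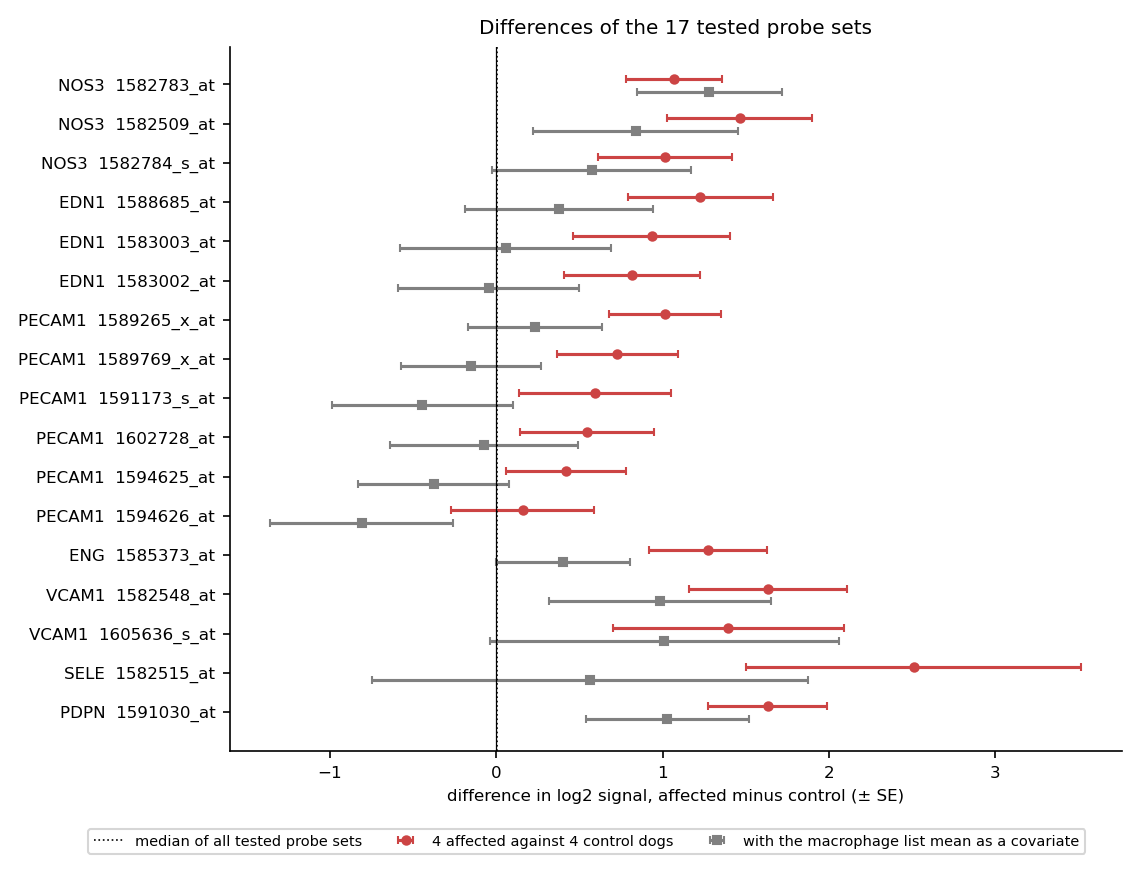
Difference in log2 signal, affected minus control (horizontal axis, ± SE from limma, 4 dogs per group), for each of the 17 tested probe sets (vertical axis). Red circles are the differences between the groups and grey squares the same with each dog's macrophage list mean as a covariate; the dotted line is the median of all tested probe sets. All red points lie above 0, while with the covariate the NOS3, VCAM1, SELE and PDPN probe sets lie between 0.57 and 1.28, those of EDN1 and ENG between -0.045 and 0.40, and those of PECAM1 between -0.81 and 0.23.

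Of the leukocyte adhesion genes, VCAM1 had 2 probe sets. The brighter (1582548_at) had signals of 4739, 2053, 1738 and 2725 in controls and of 7078, 4070, 7506 and 19712 in affected dogs. Affected 4 was far above the rest and affected 2 lay below control 1. Its difference was 1.63 ± 0.47, a signal 3.10 times as high, and it was 1.20 without affected 4. The other (1605636_s_at) had signals of 1462, 733, 379 and 1184 in controls and of 1015, 1013, 2352 and 9498 in affected dogs. Here affected 1 and 2 lay within the control range, and affected 3 and 4 above it. The difference was 1.39 ± 0.70, and 0.69 without affected 4.

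SELE had the largest difference and the widest spread of the 7 genes. Its 1 probe set had signals of 406, 51.3, 408 and 321 in controls and of 1437, 402, 481 and 10283 in affected dogs. Affected 2 lay just below 2 of the controls and affected 3 just above them, while affected 4 was higher than every other dog by a wide margin and control 2 was lower than every other dog. The difference was 2.51 ± 1.01, with SDs of 1.45 in controls and 2.15 in affected dogs. It was 1.51 without affected 4, 1.79 without control 2 and 0.79 without both. SELP, the selectin of platelets and endothelial cells, chosen for mention after its values were seen, had signals of 2110, 72.4, 1245 and 1080 in controls and of 1675, 810, 2766 and 15953 in affected dogs. The same 2 dogs as for SELE stood at the ends, and the difference was 2.05 ± 1.11, with 0.78 ± 0.38 in the other SELP probe set. It was 0.97 without control 2, 1.21 without affected 4 and 0.13 without both.

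Of 24 other listed genes of leukocyte adhesion, 13 were tested, 9 were higher and 4 lower, with a median of 0.29 and 0 past the threshold. The median was 0.17 without control 2 and 0.062 without affected 1. In 3 of the 13 every affected dog lay above every control, beside 2.35% of all tested probe sets. These 3 genes were the integrin chains ITGB2, at 1.52 ± 0.33, and ITGAM, at 1.38 ± 0.35, and the selectin ligand SELPLG, at 1.47 ± 0.45. All 3 are known mainly from leukocytes. ICAM1, the endothelial ligand of these integrins, was chosen for mention after its values were seen. It had signals of 1432, 17.3, 342 and 751 in controls and of 3621, 898, 2875 and 7233 in affected dogs. Control 2 was under the floor, affected 2 lay below control 1, and the difference of 3.10 ± 1.04 was 2.00 without control 2. Of 19 listed genes of NF-kB signalling, through which cytokines induce adhesion molecules, only 3 were tested. TLR4 differed by 1.11 ± 0.48, the feedback inhibitor NFKBIA by 0.84 ± 0.43 and the receptor TNFRSF1A by 0.34 ± 0.48. TLR4 was at 0.66 without control 2, and without affected 4 NFKBIA was at 0.56 and TNFRSF1A at -0.079.

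PDPN had the smallest error relative to its difference. Its 1 probe set had signals of 1234, 634, 405 and 690 in controls and of 2890, 1405, 2077 and 2389 in affected dogs. All 4 affected dogs were above control 1, the highest control, but affected 2 by a small margin, and with median centring in place of scaling these 2 dogs overlapped. The difference was 1.63 ± 0.36, a signal 3.10 times as high, and it ranged from 1.38 to 1.92 with each dog left out in turn. Of 17 listed genes of lymphatic endothelium and podoplanin partners, 6 were tested, 5 higher and 1 lower, with a median of 0.34 (0.12 without control 2) and 0 past the threshold. The lymphatic regulator PROX1, the receptor FLT4 and LYVE1 were not named on the array, so a lymphatic source was not analysed here. RELN, secreted by lymphatic endothelium among other cells, had signals from 576 to 1950 in controls and from 1897 to 4091 in affected dogs. Of the affected dogs only affected 2 lay below control 1, and the difference was 1.62 ± 0.40, against 0.42 ± 0.26 in the other RELN probe set. The lymphatic chemokine CCL21 differed by -0.63 ± 0.46 in its brighter probe set and by -1.81 ± 0.65 in the other, with overlap in both. The first was -0.30 without control 3 and -1.08 without control 2. The hyaluronan receptor CD44 differed by 0.81 ± 0.50, by 0.42 without affected 4 and by 1.32 without affected 3.

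**Figure D3:**
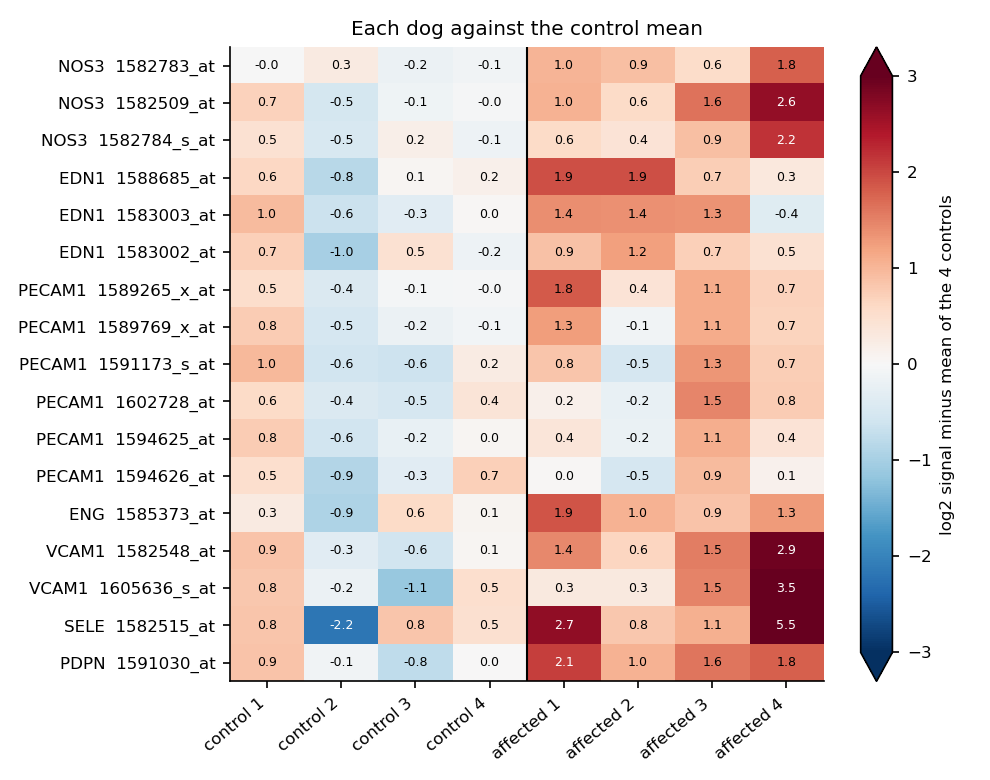
Log2 signal of each of the 17 tested probe sets (rows) in each of 8 dogs (columns) minus the mean of the 4 controls; red is above and blue below that mean, the printed value is the difference, and colours end at 3. Control 2 and control 3 hold all the lowest values. Affected 4 stands out for NOS3, VCAM1 and SELE, affected 1 and 2 for the brightest EDN1 probe set, and affected 3 for the lower PECAM1 probe sets.

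Across the 17 probe sets, the highest of the 8 dogs was affected 4 in 6, affected 1 in 5, affected 3 in 4 and affected 2 in 2. The lowest of the 8 was control 2 in 11 and control 3 in 6. Within the affected group affected 2 was the lowest in 12 of 17, and within the controls control 1 was the highest in 13. The 7 genes thus did not share 1 order of affected dogs: NOS3, VCAM1 and SELE peaked in affected 4, EDN1 in affected 1 and 2, and ENG, PDPN and the brightest PECAM1 probe set in affected 1. These probe sets share dogs and arrays, so the counts are not independent of each other.

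Markers of endothelial identity had a smaller median difference than the 7 genes, whose brightest probe sets had a median of 1.27. The 7 genes were chosen as higher in affected dogs, so nothing is read from this gap. Single genes did not all follow it: TEK, at 0.99, differed by more than PECAM1 1589769_x_at, at 0.73. Of 30 listed genes of endothelial identity, 11 were named on the array and 10 were tested, while CDH5, KDR and CLDN5 were not named. Of the 10, 7 were higher and 3 lower, with a median of 0.39, 0 past the threshold and none with groups apart. The angiopoietin receptor TEK differed by 0.99 ± 0.34, with signals of 708, 267, 370 and 508 in controls and of 941, 771, 634 and 1216 in affected dogs. Of the affected dogs only affected 3 lay below control 1, but the other TEK probe set differed by -0.029 ± 0.28. The related receptor TIE1 differed by 0.48 ± 0.25. The VEGF receptor FLT1 differed by 0.49 ± 0.39 in its brighter probe set and by 0.036 ± 0.39 in the other, and the first ran from 0.27 without affected 4 to 0.78 without affected 1. VWF, the clotting factor stored by endothelial cells, had signals of 815, 1946, 502 and 450 in controls and of 824, 2394, 1305 and 677 in affected dogs. The ranges overlap widely, and the difference of 0.57 ± 0.52 was 0.22 without affected 2. The mean log2 signal of the 10 markers ran from 9.23 to 9.59 in controls and from 9.64 to 9.80 in affected dogs.

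The brightest probe set of each gene was also set against that mean within the same dog. The brightest NOS3 probe set less the marker mean had a control mean of -0.12 ± 0.12 and an affected mean of 0.61 ± 0.50 (each with its SD over 4 dogs), and every affected dog stayed above every control. For PDPN the averages were 0.010 ± 0.57 and 1.31 ± 0.46, with affected 2 below control 1. For ENG they were 1.83 ± 0.78 and 2.77 ± 0.41, and controls and affected dogs overlapped after this step. The remaining genes overlapped too. The group difference on this scale was 0.74 for NOS3, 0.89 for EDN1, 0.68 for PECAM1, 0.94 for ENG, 1.30 for VCAM1, 2.18 for SELE and 1.30 for PDPN. With the mean of the 3 measured defining markers VWF, TEK and TIE1 in place of all 10, these values were smaller, from 0.33 for PECAM1 and 0.39 for NOS3 to 1.83 for SELE. All of these brightest probe sets kept their sign, but the genes were chosen as higher, so nothing is read from that. The other probe sets were not set against the marker mean. Among them, PECAM1 1594626_at differed by 0.16 alone, where the mean of the 10 markers differed by 0.33.

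**Figure D4:**
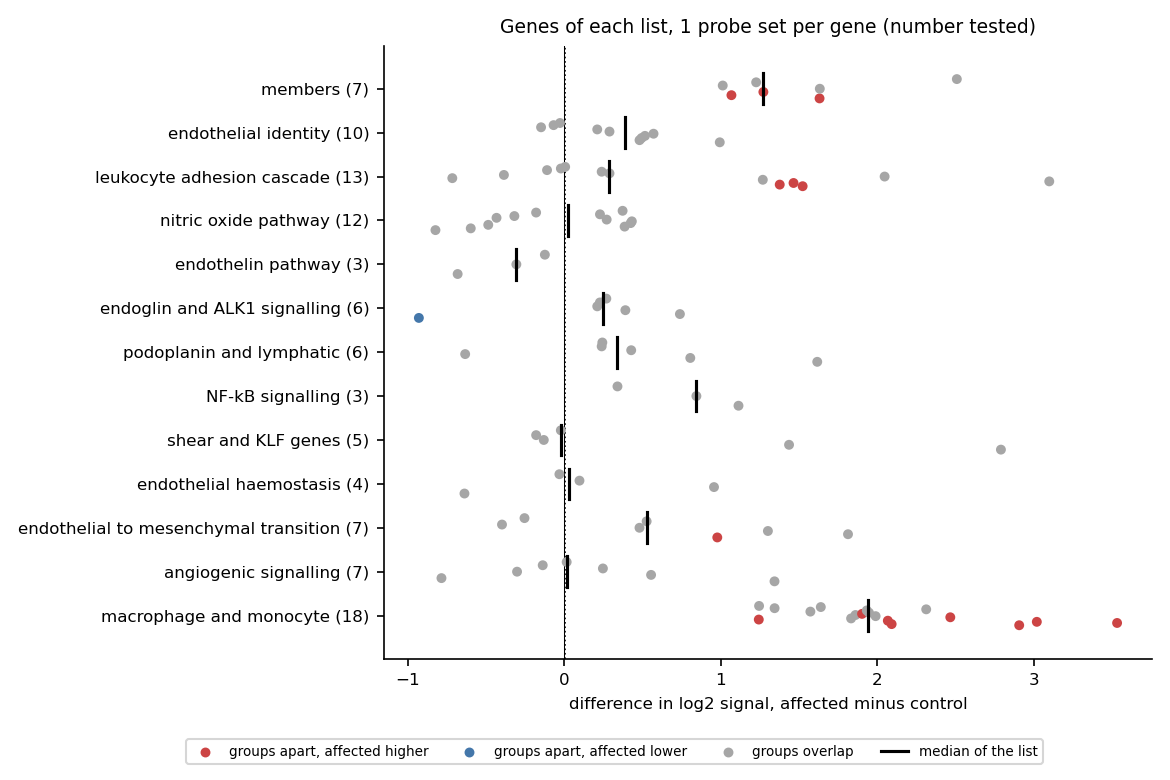
Difference in log2 signal, affected minus control (horizontal axis), for each tested gene of the 7 members, 11 lists of related genes and the macrophage markers, with 1 probe set per gene and the number tested in brackets. Red and blue points are genes whose groups were apart, grey points overlap, black bars are medians and the dotted line is the median of all tested probe sets. The members were chosen for their differences; the endothelial identity list has a median of 0.39 and the macrophage list one of 1.94.

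Other lists linked to the endothelium held 0 genes past the threshold. Of 5 tested genes linked to shear stress, 2 were higher and 3 lower, with a median of -0.021 that ran from -0.14 to 0.29 with each dog left out. The prostaglandin synthase PTGS2 differed by 2.79 ± 0.91, the hydroxylase CYP1B1 by 1.44 ± 0.50 and the reductase NQO1 by -0.13 ± 0.26, with 0.30 ± 0.29 in its other probe set. Without control 2 PTGS2 was at 1.86 and CYP1B1 at 0.90. Of 7 genes of endothelial to mesenchymal transition, 5 were higher, with a median of 0.53 that was 0.25 without affected 1 and 0.88 without affected 4. The matrix protein FN1 had 5 probe sets, with differences from 0.98 ± 0.47 in the brightest to 1.98 ± 0.69. In these 2, as in 2.35% of all tested probe sets, every affected dog lay above every control. In the other 3 the groups overlapped. Without control 2 the brightest was at 0.43. POSTN, another matrix protein, differed by 1.81 ± 0.94 and S100A4 by 1.30 ± 0.71, and without control 2 by 0.82 and 0.50. Of 7 angiogenic genes 4 were higher, with a median of 0.016 that was -0.020 with quantile normalization and -0.059 with median centring, and ran from -0.20 to 0.56 with each dog left out. THBS1, an inhibitor of angiogenesis, differed by 1.34 ± 0.54, the hypoxia factor EPAS1 by -0.78 ± 0.61 and ANGPTL4 by 0.56 ± 0.60. THBS1 was at 0.74 without control 2, EPAS1 at -0.27 without affected 1 and ANGPTL4 at -0.014 without affected 4. Of 4 genes of haemostasis 2 were higher, with a median of 0.033 that was -0.041 with median centring and ran from -0.47 to 0.30 with each dog left out. The clotting factor F8 differed by -0.64 ± 0.40, the prostaglandin synthase PTGS1 by 0.96 ± 0.63 and ANXA2 by 0.098 ± 0.42. Without control 2 PTGS1 was at 0.29 and ANXA2 at -0.32.

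Markers of macrophages and monocytes differed in the same direction as the 7 genes. All 18 tested markers had a higher mean in affected dogs, where 50.5% of all tested probe sets did. In 8 of the 18 every affected dog lay above every control, beside 2.35% of all tested probe sets. The median of the 18 markers was 1.94, and 1.18 without control 2, and 0 of them passed the threshold. The mean log2 signal of the 18 markers was 9.78, 6.54, 8.52 and 8.92 in controls and 11.12, 9.94, 10.54 and 10.35 in affected dogs. It was lowest in control 2 and highest in affected 1. CSF1R, the receptor that keeps macrophages alive, differed by 1.57 ± 0.79 (0.64 without control 2) and CD14, a receptor for bacterial lipopolysaccharide, by 2.09 ± 0.45. With this mean as a covariate in the fit, the brightest NOS3 probe set differed by 1.28 ± 0.43, the brighter VCAM1 by 0.98 ± 0.67 and PDPN by 1.03 ± 0.49. The other 2 NOS3 probe sets were at 0.84 ± 0.62 and 0.57 ± 0.60. ENG was at 0.40 ± 0.40 with the covariate, the brightest EDN1 probe set at 0.38 ± 0.57, SELE at 0.57 ± 1.31 and the brightest PECAM1 probe set at 0.23 ± 0.40. The other PECAM1 probe sets were between -0.81 and -0.072. Since the list mean of each affected dog lay above that of each control, the covariate and the group overlap strongly and the errors are wide.

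**Figure D5:**
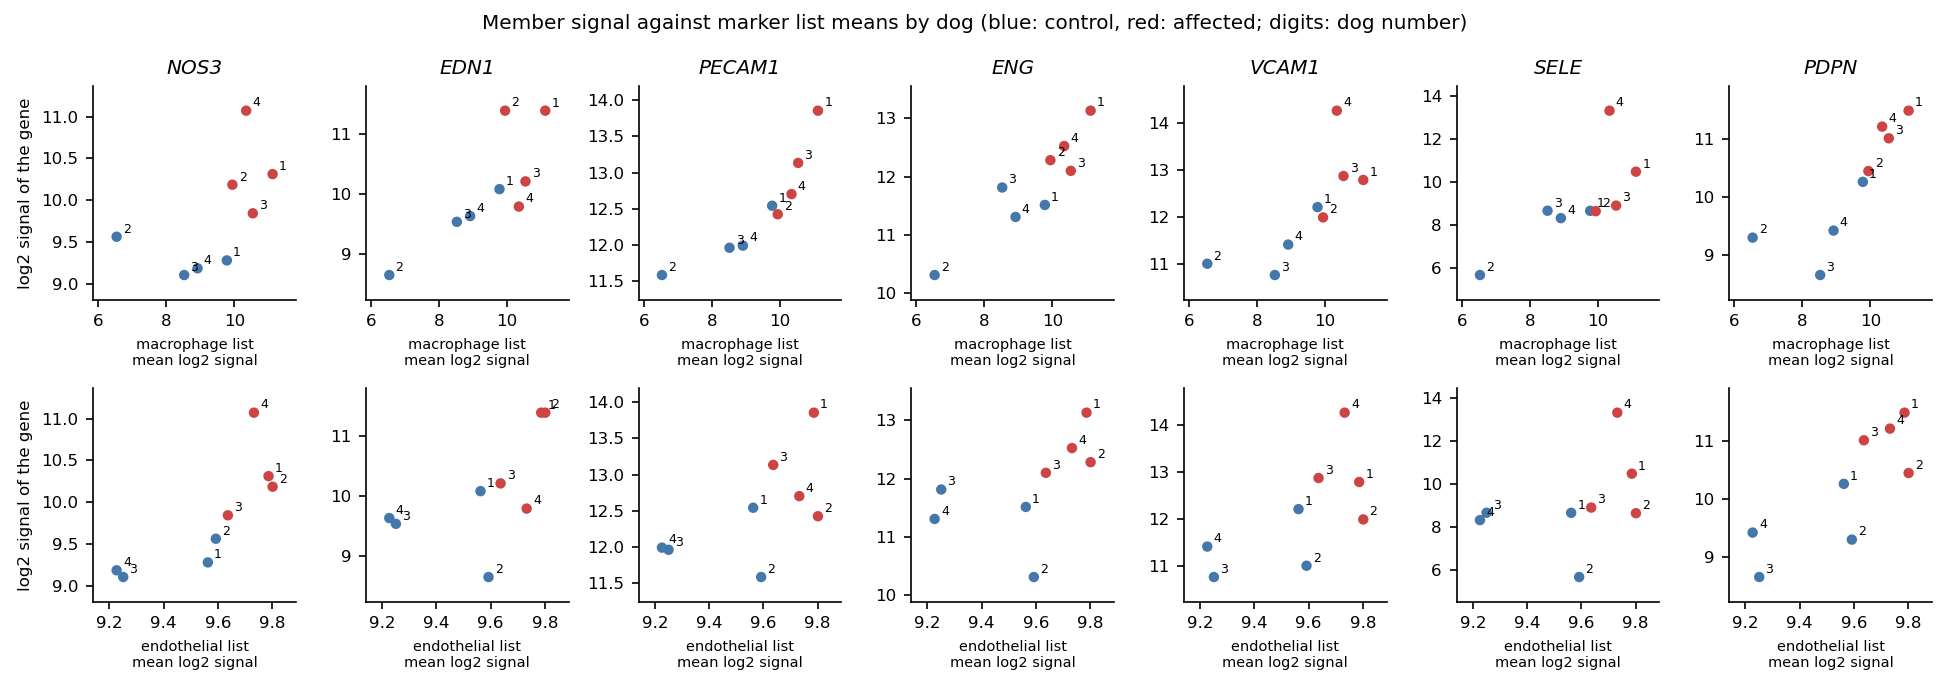
Log2 signal of the brightest probe set of each gene (vertical axes) against each dog's mean log2 signal of 18 macrophage and monocyte markers (top row) and of 10 endothelial markers (bottom row); blue points are controls, red points affected dogs, and digits the dog number. Control 2 has the lowest macrophage mean, at 6.54, and the affected dogs hold the 4 highest values on both horizontal axes.

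Of the other cell type lists, fat cell markers had a median of -1.42 over 7 genes, and of -0.97 without control 3. In 3 of the 7 the brightest probe set was lower in every affected dog than in every control, beside 2.31% of all tested probe sets. SCD was at -1.15 ± 0.26 and LPL at -1.70 ± 0.39, and their other probe sets at -0.98 for SCD and at -1.97 and -0.59 for LPL. The neutrophil list had a median of 1.45 over only 2 genes, MMP9 at 2.54 ± 0.92 and CXCR2 at 0.35 ± 0.38, and CXCR2 was at 0.16 without control 4. Platelet markers, which matter for PECAM1, had 3 tested genes. SELP is among the 3, so the list is no separate measure for SELP. The list mean ran from 6.25 to 8.65 in controls and from 8.13 to 9.81 in affected dogs, and ITGA2B differed by 0.063 ± 0.34. The median of the list, 0.36, was -0.0033 without control 2. Lymphocyte markers had a median of 0.27 over 6 genes, 0.085 without affected 1 and 0.14 without control 2. JCHAIN was at 0.28 ± 0.44 (-0.072 without affected 3) and CD3E at 0.54 ± 0.33 (0.33 without control 4). Interstitial cell markers had a median of 0.52 over 11 genes, and of -0.031 without control 2, with VIM at 0.53 ± 0.27 and DCN at 0.16 ± 0.24. Cardiac muscle markers had a median of -0.53 over 17 genes, -0.059 without control 2 and 0.14 without affected 3. Of the 17, 16 were lower and 1 higher in affected dogs, where 50.5% of all tested probe sets were higher. The 2 brightest were MYL4, at -0.23 ± 0.48, and ACTC1, the 1 higher gene, at 0.11 ± 0.42. With the cardiac muscle mean as a covariate NOS3, ENG, PDPN, SELE and the brighter VCAM1 probe set were at 1.14 ± 0.28, 1.19 ± 0.35, 1.62 ± 0.37, 2.29 ± 1.00 and 1.57 ± 0.48. The 4 PECAM1 probe sets of smaller difference were lower with it, at 0.42 against 0.59, 0.38 against 0.55, 0.25 against 0.42 and -0.022 against 0.16. Smooth muscle markers had a median of 0.33, 0.035 without affected 2 and 0.95 without control 2. DES was at 0.33 ± 0.79, from -0.27 without control 3 to 0.95 without control 2. SMTN was at 0.24 ± 0.46 in its brightest probe set and at -0.21 and -0.31 in its other 2. Of red cell markers only GYPC was tested, at -0.32 ± 0.36, of mast cell markers only MS4A2, at 0.74 ± 0.37, and of epithelial markers only KRT18, at 0.11 ± 0.52, and CDH1, at 0.21 ± 0.34. The part of these cells in the differences of the 7 genes was not tested beyond the macrophage and cardiac muscle values given.

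The genes most like each member were found from Pearson correlations over the 8 dogs after each group's mean was subtracted, among 7838 probe sets with 1 symbol. The likeness is a description, since 8 arrays leave room for high values by the number of probe sets alone: between 0.0766% and 0.689% of them had an r above 0.9 with a given member. NOS3 was most like ZFAND2A (0.98), ALAS1 (0.96) and ELAC2 (0.96), and EDN1 was most like PGAP6 (0.98), U2SURP (0.96) and SECISBP2 (0.96). For PECAM1 they were NPC2, EPS15 and SMPD1 (0.99, 0.98 and 0.98), and for ENG SH3BGRL3, PPIB and SLC16A13 (0.99, 0.99 and 0.98). VCAM1 was followed by EIF2S1, HMGB2 and RNF170, each at 0.98. SELE was followed by SLC5A6, MARCKSL1 and CDA at 0.98, 0.98 and 0.97, and PDPN by CDKN1A, LOC486757 and HMOX2 at 0.98, 0.92 and 0.92. Of these 21 pairs, 8 were found again with Spearman's rho and 7 with the group means kept in.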

How the data were processed

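The deposited values are probe set signals, linear intensities that the authors made with MAS5 from biotin-labelled total RNA, per the submitters' processing notes and the labels' protocols. Its version, detection calls and filters are not stated there. Values were scaled to a common 2% trimmed mean, raised to 34.2 where lower (the pooled 20th percentile) and put on the log2 scale. Tested probe sets exceeded the array's own 40th percentile on 4 or more of the 8 arrays. Groups were compared with limma 3.58.1 in R 4.3.3 (intensity trend, two-sided, Benjamini-Hochberg over 14705 probe sets, threshold 0.05), after a check on simulated data. Of 23913 rows, 10549 had 1 symbol, 138 several and 13226 none; all 7 genes matched a RefSeq gene table of UU_Cfam_GSD_1.0 by identifier. Signals of different probe sets are not on 1 scale, so levels were used only to pick the brightest probe set and, as differences within a dog, against the marker mean, whose absolute size has no meaning.

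The members, lists and tests were chosen with earlier results of these data known. Each list took the brightest tested probe set of a gene. Named were all members, the 3 genes of smallest p and those with groups apart in each pathway list, the 2 brightest of each marker list, and the 3 genes most like each member; VWF, COL1A1, COL3A1, DCN and VIM are the defining markers, and SELP, ICAM1 and ACVRL1 were added after their values were seen. Deviations of same-numbered dogs correlated at -0.12, 0.41, 0.022 and -0.013 for numbers 1 to 4. The dogs share only a number, so they were not paired. No 2 arrays were alike (r at most 0.95). The alternatives were quantile normalization, median centring, other floors and filters, a pseudocount of 32, other variance models, a replicate block, the covariates and leaving out dogs.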

Additional observations from a re-analysis of the deposited data

Results flagged for a closer look

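Of 42 groups of 4 dogs checked (18 member probe sets and 3 list means in each group), 3 held a dog far from the other 3, where chance gives about 1 in 20. In the EDN1 probe set 1583003_at, affected 4 had a log2 signal of 7.34 and the next affected dog 9.06. In the SELE probe set, control 2 had 5.68 and the next control 8.33. In the dim PECAM1 probe set 1594669_at, control 3 had 5.86 and the other controls were at the floor of 5.10. The floor sets this last one: on signals without it, the gap of control 3 to the next control was 0.63 of the range, and 2 groups were left. The SELE and EDN1 differences without these dogs were 1.79 and 1.37.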

How the results depend on the processing

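Of 372 differences of the 17 probe sets under the alternatives, 361 were above 0, and no member probe set passed the threshold under any of them. Dropping the filter or making it stricter, dropping the intensity trend, the robust prior and the replicate block cannot change a difference. Removing the floor changed none here. Such values are part of the 361, and the genes had been chosen as higher, so nothing is read from this count. By a separate mark, a move of more than 1 SD between dogs, 11 differences moved, all with the macrophage covariate. With it EDN1 was at 0.38, 0.057 and -0.045 in its 3 probe sets, PECAM1 at 0.23, -0.15, -0.44, -0.38 and -0.81 in 5 of its 6, ENG at 0.40, SELE at 0.57 and PDPN at 1.03, and the medians of the endothelial identity and adhesion lists were 0.19 and -0.30. The cause was not tested. The mark of 1 SD is wide where dogs vary: SELE, at 2.51, was at 0.79 without control 2 and affected 4 and was not counted. Changes by a factor of more than 1.5 were seen in 12 of 21 alternatives for PECAM1 1594626_at. They were seen in 7 of 22 each for PECAM1 1591173_s_at and 1594625_at, and in 3 of 22 for SELE. The smallest PECAM1 difference also fell below 0 with array weights (-0.25), with the cardiac muscle covariate (-0.022) and without control 2 or affected 3. Over all probe sets the count past the threshold was 4 with the replicate block, 20 at an adjusted p of 0.25, and from 0 to 1 with each dog left out; the 4 and the 1 held no member. The dogs share only a number (same-numbered deviations correlated at -0.12 to 0.41), and the block left every member difference as it was. Member probe sets with groups apart numbered from 3 to 9 with each dog left out (9 without control 1, 8 without affected 2, 5 without affected 4) and 5 without control 2 and affected 4, an alternative chosen after seeing the data, where smaller groups come apart more easily. Over all probe sets such counts were 446 to 1059 higher and 440 to 846 lower, and 829 and 1030 without both dogs. With median centring 2 member probe sets were apart, and the median of all tested probe sets was -0.067. All 119 alternative values of the brightest probe set of each gene less the endothelial mean were above 0, from 0.33 to 2.76. The filters cannot change these values, and median centring and removing the floor changed none here. Since the genes had been chosen as higher, nothing is read from this count either. The other probe sets and the covariates were not part of the 119 values. Of 55 other named genes, 14 changed sign with some dog left out and 27 in any alternative. The count of groups apart uses no fit, so variance models, block and covariates gave no value for it. A stricter filter left EDN1 1583002_at and PECAM1 1594626_at untested. Of the 21 pairs of like genes, 8 were kept with Spearman's rho and 7 with group means kept in.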
